A study of Mus musculus with 9 samples.

Results

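Noncycling WT double-positive (DP) thymocytes, which carry both CD4 and CD8, were set against WT CD4 single-positive (CD4 SP) and CD8 single-positive (CD8 SP) thymocytes, and the changes shared by both comparisons are described. A cell was taken as WT when hashtag 4, an antibody with an oligonucleotide tag, reached 10 counts and was 4-fold or more above every other hashtag. Cells had at least 500 genes, at most 10% mitochondrial UMIs (unique molecular identifiers, each counting 1 captured RNA molecule) and fewer than 5 summed UMIs of the cycling genes Mki67, Top2a, Cdk1, Birc5, Ube2c and Ccnb2. This left 2119 DP, 3040 CD4 SP and 2503 CD8 SP cells, together 7662 of the 26990 barcodes in the 3 RNA libraries. The genes of the cut, the mitochondrial share, and Cd4, Cd8a and Cd8b1, which the sort fixes, are no finding here.

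All cells came from thymus of adult female mice. WT cells (hashtag 4) and cells of CD3εI173A mice (hashtag 6), which carry a substitution in the CD3ε chain of the T cell receptor (TCR), got different hashtags and were sorted by CD4, CD8 and a dead-cell dye into DP (CD4+CD8+), CD4 SP (CD4+CD8-) and CD8 SP (CD4-CD8+) gates. Each gate was 1 library on the 10x Genomics 5′ platform, read for RNA, TCR contigs and hashtags. The sources used here do not give the strain or the number of mice, so each gate is 1 WT sample, no test was possible and no value has a replicate check. Hashtag 5 was also counted in the matrices, with no genotype in the labels. Cells were assigned by these 15-base tags, shown because the WT group rests on the first of them:
Hashtag 4 (WT): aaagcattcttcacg
Hashtag 5 (no genotype given): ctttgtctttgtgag
Hashtag 6 (CD3εI173A): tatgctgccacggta

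The kept cells held 5984506 UMIs in DP, against 19349030 in CD4 SP cells and 14083874 in CD8 SP, with medians per cell of 2667 UMIs in DP, against 6029 in CD4 SP cells and 5296 in CD8 SP. The cut on cycling genes removed 15.8% of WT cells that passed the other filters in DP, against 2.22% in CD4 SP cells and 17.04% in CD8 SP. WT cells with barcodes found in another gate numbered 9 between DP and CD4 SP, 7 between DP and CD8 SP and 11 between CD4 SP and CD8 SP. Barcodes with several hashtags were left out, and doublets of 2 WT cells remain. Levels are UMI counts scaled to the same total in each gate (CPM), and every interval in parentheses is an exact 95% interval that covers counting error only.

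DP thymocytes have a TCR β chain and rearrange their TCR α genes with the RAG recombinase. Cells whose receptor binds self peptide on MHC molecules receive a survival signal, stop recombination and become CD4 or CD8 single-positive. Maturing single-positive cells turn on the transcription factor KLF2 and its target S1PR1, the receptor that guides T cells out of the thymus.

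Promoter sequence is shown for the genes whose levels mark the 2 sides of the comparison. It comes from RefSeq (GRCm38.p6) and runs from 250 bases before the annotated start to 50 bases from it. Capitals mark any match to CAGCTG (an E-box, the kind of site E proteins bind), TGTTTAC (forkhead), GGGTGTG or GGGCGTG (KLF) or a pattern like the interferon-stimulated response element (GAAA, 2 bases of any kind, GAAA), searched on both strands. Each motif was searched by itself, so matches of different motifs may overlap.
Rag1, chr2:101649483-101649782, minus strand: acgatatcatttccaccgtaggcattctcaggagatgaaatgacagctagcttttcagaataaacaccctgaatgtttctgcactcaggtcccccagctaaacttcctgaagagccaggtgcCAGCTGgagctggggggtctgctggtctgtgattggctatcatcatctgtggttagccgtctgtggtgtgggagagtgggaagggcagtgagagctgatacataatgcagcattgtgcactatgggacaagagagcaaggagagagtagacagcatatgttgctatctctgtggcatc
Klf2, chr8:72318812-72319111, plus strand: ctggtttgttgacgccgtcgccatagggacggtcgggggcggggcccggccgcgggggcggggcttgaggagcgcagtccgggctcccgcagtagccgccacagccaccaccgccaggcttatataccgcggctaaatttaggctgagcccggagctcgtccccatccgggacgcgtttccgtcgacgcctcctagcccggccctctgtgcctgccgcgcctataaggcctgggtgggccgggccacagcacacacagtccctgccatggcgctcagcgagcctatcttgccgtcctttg
The Rag1 promoter held 1 match, CAGCTG at -128 to -123 counted from the start, and the Klf2 promoter held none of the letters searched. The sequence of the S1pr1 promoter is not shown.

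The markers separated the gates. Rag1, the catalytic subunit of the recombinase (chr2:101638252-101649532, GRCm38), was at 1499.5 CPM in DP, 8.01 CPM in CD4 SP and 0.71 CPM in CD8 SP. Klf2 (chr8:72319062-72321654) was at 21.6 CPM in DP, 630.0 CPM in CD4 SP and 656 CPM in CD8 SP. S1pr1 (chr3:115710433-115715055) was at 3.51 CPM in DP, 179 CPM in CD4 SP and 146 CPM in CD8 SP. Rag1 was high in DP alone, and both exit genes were low in DP alone. The comparison was chosen by the levels of genes in these same cells, so these and the following levels are a description of 3 libraries.

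The share of cells with a marker UMI followed the levels. After each cell was thinned to 1500 UMIs (1811 DP, 2993 CD4 SP and 2454 CD8 SP cells reached that depth), a Rag1 UMI was found in 77.2% of DP, against 0.936% of CD4 SP and 0.122% of CD8 SP cells. Before thinning the shares were 85.3% in DP, against 1.118% in CD4 SP cells and 0.320% in CD8 SP. Thinning lowered the Rag1 shares but kept their order. For Klf2 the thinned shares were 1.27% in DP, against 45.2% in CD4 SP cells and 53.1% in CD8 SP. The unthinned shares for Klf2 were 2.64% in DP, against 65.6% in CD4 SP cells and 74.9% in CD8 SP. Klf2 UMIs were thus common in both single-positive gates, which were not sorted by maturity, and rare in DP cells. For S1pr1 the thinned shares were 0.110% in DP, against 20.3% in CD4 SP cells and 18.2% in CD8 SP, and the unthinned ones 0.283% in DP, against 40.7% in CD4 SP cells and 43.8% in CD8 SP. S1pr1 UMIs were rare in DP cells at either depth, while the order of the single-positive gates turned with thinning. The level of free RNA in each library was not measured. Some marker UMIs were found on the wrong side. The 155 Rag1 UMIs of the CD4 SP gate lay in 34 cells, of which 5 had exactly 1. The 21 S1pr1 UMIs of the DP gate lay in 6 cells, and 10 of them in 1 cell. Whether cells with such UMIs were missorted, doublets or in transition was not tested.

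Of the 31053 genes in the matrices, 7406 reached 20 CPM in at least 1 gate and were measured. A gene was called when DP differed at least 4-fold from CD4 SP and at least 4-fold from CD8 SP in the same direction. This held for 336 genes that were higher in DP (4.54% of those measured) and 206 that were lower (2.78%). Against CD4 SP by itself 385 genes (5.20%) passed as higher and 264 (3.56%) as lower, and against CD8 SP by itself 495 (6.68%) and 261 (3.52%). With no fold asked, 4887 genes (66.0%) were higher and 1801 (24.3%) lower than in both gates. At 2-fold the counts were 996 (13.4%) and 514 (6.94%). A further 49 genes were 4-fold higher in DP than in CD4 SP alone and 159 than in CD8 SP alone, while 58 were lower than in CD4 SP alone and 55 lower than in CD8 SP alone. Just inside the threshold lay Gm45606 (log2 2.01 for the weaker of its 2 ratios) and Gramd1b (-2.02), and just outside lay Map4k5 (2.00, below 2 before rounding) and Ripor2 (-1.99). Only 5 genes passed 4-fold in opposite directions, among them Zbtb7b, the transcription factor of CD4 lineage choice, and Cd40lg, the CD40 ligand of helper cells, chosen after their values were seen. Zbtb7b was at 2.67 CPM in DP, 111 CPM in CD4 SP, with 0 UMIs in CD8 SP. Cd40lg was at 4.18 CPM in DP, 153 CPM in CD4 SP and 0.994 CPM in CD8 SP.

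More genes passed the larger folds on the DP side, where more genes were called. Of the 336 higher genes 169 passed 8-fold and 55 passed 32-fold against both gates, and of the 206 lower genes 107 and 22 did. The lowest level used in log2 ratios was 0.501 CPM in DP, 0.155 CPM in CD4 SP and 0.213 CPM in CD8 SP. A gene of a given level could therefore reach a larger fold as higher than as lower in DP. How far this floor shaped the counts was not tested. The 336 higher genes made up 6.10% of all UMIs in DP, against 0.663% in CD4 SP cells and 0.552% in CD8 SP. The 206 lower genes made up 0.494% in DP, against 4.50% in CD4 SP cells and 4.81% in CD8 SP. CPM is a share, and the scale matters. The median measured gene stood at a log2 ratio of 0.33 to CD4 SP and 0.52 to CD8 SP, with ribosomal protein genes at 12.7% of UMIs in DP, against 23.7% in CD4 SP cells and 27.5% in CD8 SP. A DP cell also held fewer UMIs, a mean of 2824 against 6365 in CD4 SP and 5627 in CD8 SP. Counted per cell, all 336 higher genes were still higher and all 206 lower genes still lower than in both other gates. This was fixed in advance, because the change of scale is the same for every gene and smaller than 4-fold. Per cell, 163 genes in place of 336 passed 4-fold as higher and 567 in place of 206 as lower. With median-of-ratios scaling, which brings the median gene near 0, 257 passed as higher and 301 as lower. With cycling cells kept, 180 passed as higher and 178 as lower. Whether the lower count per cell is less RNA in the cell or less captured cannot be told apart.

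**Figure D1:**
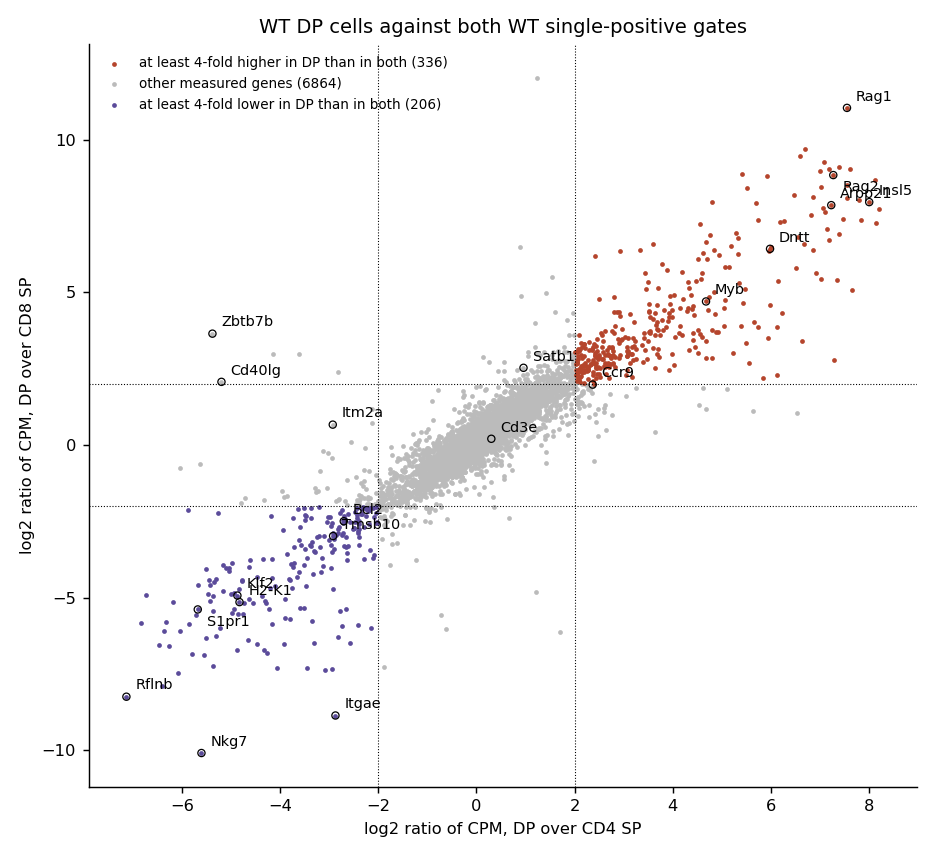
Each point is 1 of the 7406 measured genes, with the log2 ratio of DP to CD4 SP on the horizontal axis and of DP to CD8 SP on the vertical axis, and dotted lines mark 4-fold. The 336 genes higher in DP than in both gates lie at the upper right with Rag1 at 7.55 and 11.04, the 206 lower genes at the lower left with Klf2 at -4.87 and -4.93, and Zbtb7b and Cd40lg at the upper left.

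Recombination genes were among those higher in DP. Of 16 listed recombination genes 12 were measured, 6 were called higher and none lower, beside 4.54% and 2.78% of all measured genes. The median log2 ratios of the list were 2.30 to CD4 SP and 2.46 to CD8 SP, beside 0.33 and 0.52 for all measured genes. The Rag1 ratio was 187 (160 to 221) to CD4 SP and 2112 (1148 to 4406) to CD8 SP. Its partner Rag2 was at 359 CPM in DP, 2.33 CPM in CD4 SP and 0.781 CPM in CD8 SP. Dntt, the polymerase that adds untemplated nucleotides at the joints, was at 1632 CPM in DP, 25.8 CPM in CD4 SP and 19.0 CPM in CD8 SP. Of the genes that join DNA ends, some were called and others not. Lig4, the ligase that seals the joint, was at 149.9 CPM in DP, 11.8 CPM in CD4 SP and 6.18 CPM in CD8 SP, ratios of 12.7 (10.99 to 14.8) and 24.3 (19.5 to 30.6). Dclre1c (Artemis, which opens the hairpin ends) and Xrcc6 (Ku70, which binds DNA ends) were the other calls. Xrcc4, the partner of the ligase, and Prkdc, the kinase that Ku recruits, were not called. Xrcc4 had log2 ratios of 0.72 to CD4 SP and 1.09 to CD8 SP, and Prkdc of 0.26 and 0.07. Trp53bp1, which protects broken ends, had -0.89 and -0.18 and was not called. Atm, the kinase that responds to DNA breaks, went the other way, at 19.6 CPM in DP, 43.2 CPM in CD4 SP and 47.4 CPM in CD8 SP. It was the 1 measured member at least 2-fold lower.

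Genes of the DP stage had more calls. Of 21 measured members 15 were called higher and 1 lower (4.54% and 2.78% over all measured genes), with medians of 3.52 and 4.08. Arpp21, which encodes an RNA-binding phosphoprotein, was at 1302 CPM in DP, 8.68 CPM in CD4 SP and 5.61 CPM in CD8 SP. Ptcra, whose product pairs with the β chain in the pre-TCR, was at 74.5 CPM in DP, 0.62 CPM in CD4 SP and 1.49 CPM in CD8 SP. Themis, a TCR signalling protein needed for positive selection, was lower in both single-positive gates but still detected there, at 1217 CPM in DP, 144 CPM in CD4 SP and 143 CPM in CD8 SP. Some genes often listed with this stage fell short. Satb1, a chromatin organiser, was at 3014 CPM in DP, 1551 CPM in CD4 SP and 521 CPM in CD8 SP, and against CD4 SP its direction turns when counted per cell. Ccr9, the receptor for the thymic chemokine CCL25, missed the threshold against CD8 SP alone, at 1206 CPM in DP, 234 CPM in CD4 SP and 305 CPM in CD8 SP. The called-lower member was Nrgn, at 7 UMIs in DP, and its ratio to CD8 SP turned in thinned cells.

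The 20 genes with the highest weaker ratio were Insl5, Dgkeos, Cacna1e, P2rx1, Rag1, Endou, Tctex1d1, Morc1, Rag2, Arsi, Arpp21, Nron, Cbfa2t3, Rapgef3, Sema7a, Ccdc153, BB031773, Chrna9, Slc7a11 and Syt13. Rag1 and Rag2 are the members of the recombination list among them. Insl5, a peptide hormone of the relaxin family, was at 53.0 CPM in DP (317 UMIs), with 4 UMIs in CD4 SP and 1 in CD8 SP, a ratio of 256 (99.1 to 946) to CD4 SP and of 746 (133 to 29558) to CD8 SP. P2rx1, an ATP-gated ion channel, was at 111 CPM in DP, 0.569 CPM in CD4 SP and 0.142 CPM in CD8 SP. Some of these genes had no UMI at all in CD8 SP. Cacna1e, a voltage-gated calcium channel subunit, had 274 UMIs in DP, against 3 in CD4 SP cells and 0 in CD8 SP, which makes it at least 215-fold higher than in CD8 SP when the empty gate is set at 3 UMIs. Chrna9, a nicotinic acetylcholine receptor subunit, was at 275 CPM in DP, 2.43 CPM in CD4 SP and 1.49 CPM in CD8 SP. Slc7a11, the cystine-glutamate exchanger, was at 176 CPM in DP, 1.71 CPM in CD4 SP and 0 in CD8 SP, at least 824-fold higher than in CD8 SP on the same floor. A UMI of Insl5 was found in 6.13% and one of Dgkeos in 41.9% of thinned DP cells. Dgkeos is a noncoding RNA named for its place opposite Dgke, and the sources used here do not say how reads were split between them.

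**Figure D2:**
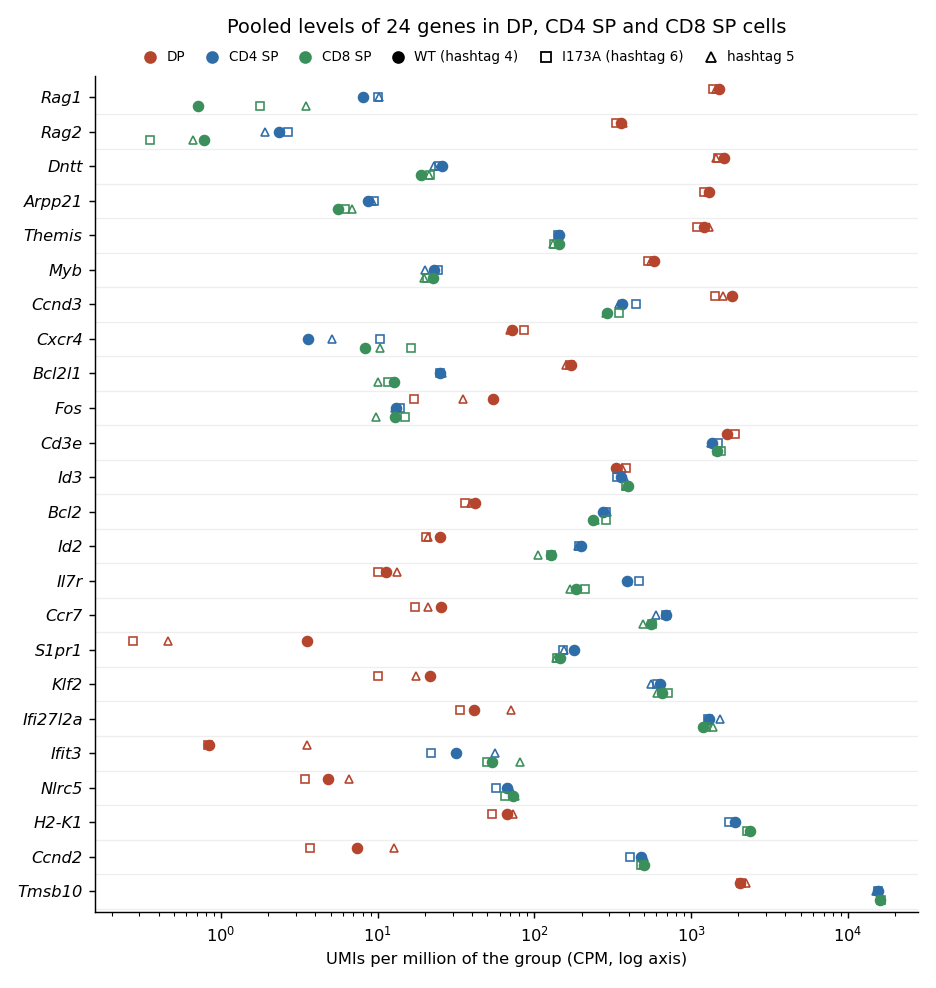
Each row is a gene and the horizontal axis its pooled level in CPM on a log scale; red marks DP, blue CD4 SP and green CD8 SP, filled circles WT, squares CD3εI173A and triangles hashtag 5 cells. Rag1 to Bcl2l1 lie to the right in DP, Bcl2 to Tmsb10 to the left in DP, and Cd3e and Id3 have their 3 gates side by side; for Cd3e the order of DP and the other gates turns when UMIs are counted per cell.

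Transcription factors divided between the sides. Of 31 measured T cell factors 4 were called higher (among them Ets2, Myb and Nfatc3) and 3 lower (Klf2, Bach2 and Runx3). In CD3εI173A cells 4 of these factors passed as higher and 1 as lower, and in hashtag 5 cells also 4 and 1. Over all measured genes 4.54% were called higher and 2.78% lower. Myb, which promotes survival of DP cells and TCRα rearrangement, was at 583 CPM in DP, 22.8 CPM in CD4 SP and 22.4 CPM in CD8 SP, ratios of 25.6 (23.2 to 28.3) and 26.1 (23.2 to 29.3). Among E proteins, which drive recombinase genes before selection, Tcf12 (HEB) was at 424 CPM in DP, 59.7 CPM in CD4 SP and 56.8 CPM in CD8 SP. Their inhibitors did not move together. Id2 was called lower, at 25.1 CPM in DP, 197 CPM in CD4 SP and 128 CPM in CD8 SP. Id3 had a similar share of UMIs in each gate, 333 CPM in DP, 358 CPM in CD4 SP and 397 CPM in CD8 SP. In the list of E proteins and Id inhibitors 2 of 5 measured members were called higher (Tcf12 and Tcf4) and Id2 alone lower. Foxo1, a factor upstream of Klf2 and Il7r, was at 62.8 CPM in DP, 220 CPM in CD4 SP and 185 CPM in CD8 SP and did not reach 4-fold.

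E-box stretches are printed for called recombination and DP stage genes whose promoter holds CAGCTG, to let the surrounding bases be compared. Of the 6 called recombination genes, all in the promoter table, 3 held a match, and of the 15 called DP stage genes 11 were in the table and 4 held one. Capitals mark the first match in each 40-base stretch, and Dclre1c and Ptcra had further matches.
Rag1, chr2:101649636-101649675, minus strand: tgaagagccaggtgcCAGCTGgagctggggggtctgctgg
Lig4, chr8:9977834-9977873, minus strand: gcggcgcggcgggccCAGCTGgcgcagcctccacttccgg
Dclre1c, chr2:3423969-3424008, plus strand: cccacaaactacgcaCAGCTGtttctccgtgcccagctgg
Arpp21, chr9:112217418-112217457, minus strand: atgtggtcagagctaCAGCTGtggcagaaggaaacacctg
Rmnd5a, chr6:71440701-71440740, minus strand: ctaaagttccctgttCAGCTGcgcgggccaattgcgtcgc
Ptcra, chr17:46763748-46763787, minus strand: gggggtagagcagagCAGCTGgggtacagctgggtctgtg
Tcf12, chr9:72112030-72112069, minus strand: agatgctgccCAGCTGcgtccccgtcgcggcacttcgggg
CAGCTG was in 22.1% of 307 promoters of genes called higher in DP, 18.9% of 206 promoters of genes called lower, 13.8% of 7486 promoters of measured genes and 16.3% of all 32851 promoters. Some genes have several promoters, and the 307 promoters belong to 219 higher genes and the 206 to 155 lower genes. These are shares of promoters, whereas the counts above are of genes with a match in any promoter. TGTTTAC was in 4.89% of the promoters of higher genes and 3.88% of those of lower genes, beside 2.67% for measured genes. These letter matches are a description, are not sites of binding, and were not tested.

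Survival and cell cycle genes changed partners within their families. In the Bcl2 family, which sets the threshold for apoptosis, 2 of 13 measured members were called higher and 2 lower. For this list and the cyclin list below, the shares over all measured genes were 4.54% higher and 2.78% lower. Bcl2l1, whose Bcl-xL product keeps DP cells alive, was at 170.1 CPM in DP, 24.96 CPM in CD4 SP and 12.6 CPM in CD8 SP. Bcl2 was at 41.9 CPM in DP, 273 CPM in CD4 SP and 236 CPM in CD8 SP. Bmf, a proapoptotic member, was the other higher call and Bcl2a1b the other lower one; Bcl2a1 genes are near copies, so their split is uncertain. Mouse thymocytes are known for this exchange of Bcl-xL for Bcl-2. D cyclins, which drive entry into the cell cycle, also divided. Ccnd3 was at 1829 CPM in DP, 364 CPM in CD4 SP and 289 CPM in CD8 SP, ratios of 5.03 (4.88 to 5.19) and 6.33 (6.10 to 6.56). Ccnd2 was at 7.35 CPM in DP, 481 CPM in CD4 SP and 501 CPM in CD8 SP. Among cells thinned to 1500 UMIs, Ccnd2 was found in 0.552% of DP, against 41.6% of CD4 SP and 47.9% of CD8 SP cells. Of 15 measured members of the cyclin list 2 were called higher, Ccnd3 and the inhibitor Cdkn2c, and Ccnd2 alone was called lower. With cycling cells removed by the rule, 0 of 19 measured S phase genes were called, with medians of 0.03 and -0.62.

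**Figure D3:**
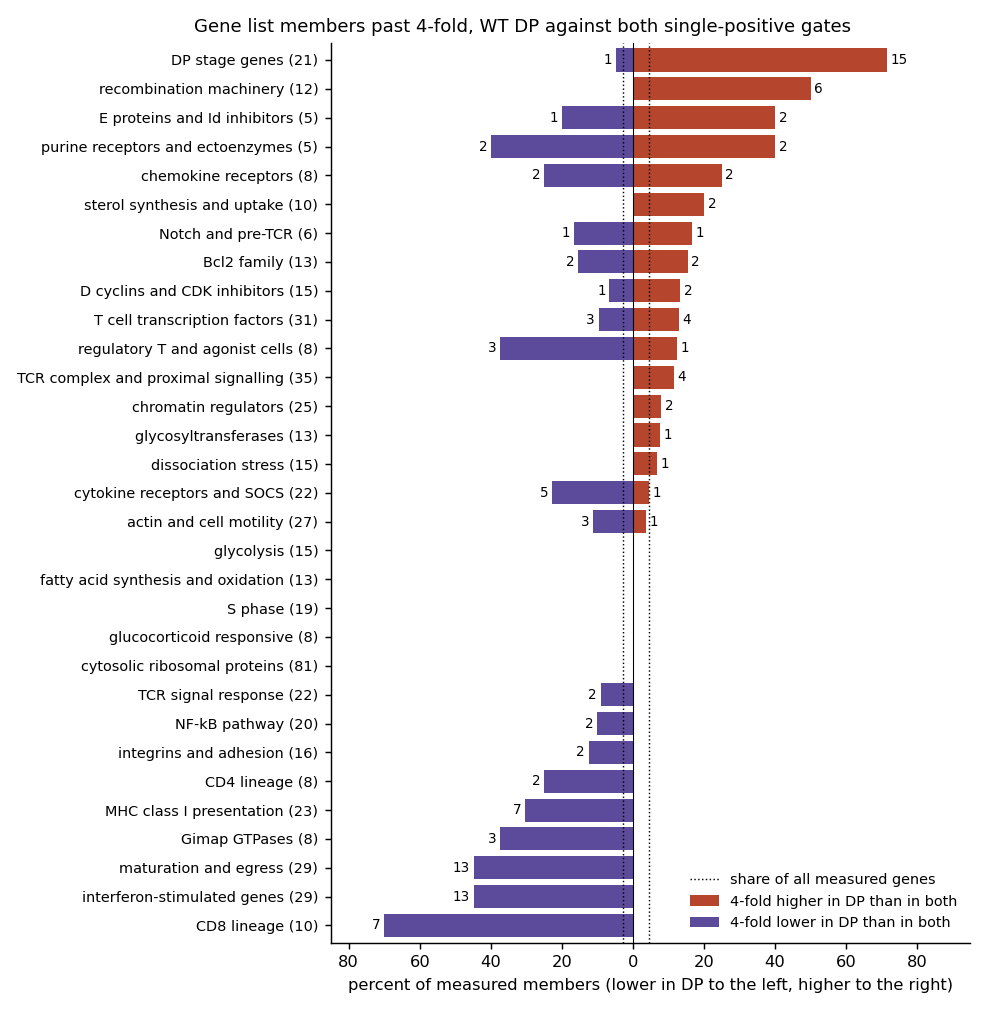
For each gene list with at least 5 measured members (number in parentheses), bars give the percent of members called 4-fold higher in DP than in both single-positive gates to the right and 4-fold lower to the left, with the count at the bar end and dotted lines at the 4.54% and 2.78% of all measured genes. DP stage genes (15 of 21) reach farthest right, and CD8 lineage genes (7 of 10), interferon-stimulated genes (13 of 29) and maturation and egress genes (13 of 29) farthest left. The CD8 lineage list holds Cd8a and Cd8b1, which the sort fixes, and 3 of its members passed as lower in hashtag 5 cells.

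Maturation and egress genes were among those lower in DP. Of 29 measured members 13 were called lower in DP (2.78% over all measured genes) and none higher, with medians of -1.95 and -1.80. For Klf2 the CD4 SP level was 29.2 times (24.6 to 35.04) and the CD8 SP level 30.4 times (25.6 to 36.5) the DP level. For S1pr1 the multiples of the DP level were 51.2 (33.4 to 82.7) in CD4 SP and 41.7 (27.2 to 67.5) in CD8 SP. Ccr7, the receptor that draws cells into the medulla, was at 25.4 CPM in DP, 694 CPM in CD4 SP and 554 CPM in CD8 SP. Il7r, the IL-7 receptor chain, was at 11.4 CPM in DP, 391 CPM in CD4 SP and 185 CPM in CD8 SP. Ms4a4b, a membrane protein of mature T cells, was at 25.1 CPM in DP, 793 CPM in CD4 SP and 1126 CPM in CD8 SP. Klf3 was the member past 2-fold in the other direction, so Klf family members did not move alike.

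MHC class I genes were low in DP. Of 23 measured members of the presentation list 7 were called lower and 17 were at least 2-fold lower, beside 2.78% and 6.94% of all measured genes. The medians were -1.39 and -1.41, and none was called higher. H2-K1, a classical class I heavy chain, was at 67.0 CPM in DP, 1901 CPM in CD4 SP and 2367 CPM in CD8 SP. The thinned share of cells with an H2-K1 UMI was 4.14% in DP, against 77.6% in CD4 SP cells and 94.8% in CD8 SP. Nlrc5, the transactivator of class I genes, was at 4.85 CPM in DP, 66.5 CPM in CD4 SP and 72.8 CPM in CD8 SP. The whole pathway did not follow. Tap2, a subunit of the peptide transporter, was at 315 CPM in DP, 220 CPM in CD4 SP and 195 CPM in CD8 SP, with the order of the gates turned when counted per cell. The H2 genes are close in sequence, so how their reads were divided is uncertain; the direction was the same for H2-K1 and H2-Q7.

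Interferon-stimulated genes were the other large group. Of 29 measured members 13 were called lower in DP and 24 were at least 2-fold lower, beside 2.78% and 6.94% of all measured genes. None was higher by these folds, and the medians were -2.19 and -1.96. Ifi27l2a was at 40.9 CPM in DP, 1309 CPM in CD4 SP and 1194 CPM in CD8 SP. Ifit3, an antiviral protein gene, was at 0.835 CPM in DP (5 UMIs), 31.4 CPM in CD4 SP and 53.4 CPM in CD8 SP. Not all of the interferon pathway was low. Ifngr1, a chain of the interferon-γ receptor, was called higher, at 648 CPM in DP, 85.8 CPM in CD4 SP and 84.6 CPM in CD8 SP. Stat2 was at 39.6 CPM in DP, 36.0 CPM in CD4 SP and 25.5 CPM in CD8 SP and turned direction per cell.

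Stretches are printed for the called members of these groups whose promoter holds the interferon-type pattern GAAA, 2 bases of any kind, GAAA. Capitals mark the first match or its reverse complement in each stretch, and Isg15, Ifit1 and Ifit3 had further matches. B2m, Isg15, Ifit1 and Ifi206 are shown for the match alone, chosen after the values were seen. Of the 13 called interferon genes 10 were in the promoter table and 5 held a match, and of the 7 called class I genes 6 were in the table and 1 did. The Ifi206 and Ifi213 stretches are nearly the same, and reads of these neighbours may be shared.
Isg15, chr4:156200872-156200911, minus strand: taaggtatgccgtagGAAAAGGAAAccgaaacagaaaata
Ifit1, chr19:34640770-34640809, plus strand: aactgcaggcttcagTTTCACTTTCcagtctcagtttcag
Ifit3, chr19:34583358-34583397, plus strand: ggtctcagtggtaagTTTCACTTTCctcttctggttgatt
Ifi206, chr1:173491334-173491373, minus strand: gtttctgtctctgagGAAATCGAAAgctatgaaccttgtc
Ifi213, chr1:173599321-173599360, minus strand: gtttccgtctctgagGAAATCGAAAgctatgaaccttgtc
B2m, chr2:122147533-122147572, plus strand: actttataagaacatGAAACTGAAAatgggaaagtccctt
The letters were in 11.2% of 206 promoters of genes called lower in DP (155 genes), 3.91% of 307 promoters of genes called higher (219 genes), 3.29% of 7486 promoters of measured genes and 3.44% of all promoters. As before, these are shares of promoters, and the counts above are of genes. For GGGTGTG the shares were 14.6% for lower, 8.14% for higher, 7.69% for measured genes and 7.95% for all, and for GGGCGTG 10.2% for lower, 14.98% for higher, 15.8% for measured genes and 8.44% for all. As above, no test was run.

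The 20 genes with the lowest weaker ratio were Rflnb, Cd7, Bcl3, Il2rb, Ccnd2, Lfng, Izumo1r, Ly6c2, Nkg7, Smad7, H2-Q7, Slc17a9, S1pr1, Cxcr6, Ctss, Igflr1, Ifit3, Gpr83, Lad1 and Ms4a4b. Rflnb, a regulator of filamin, was nearly empty in DP, with 3 UMIs there (0.501 CPM), 70.2 CPM in CD4 SP and 152 CPM in CD8 SP. Cd7, a surface receptor of T and NK cells, was at 1.504 CPM in DP, 128 CPM in CD4 SP and 353 CPM in CD8 SP. Bcl3, an IκB family protein that acts in the nucleus, was at 0.668 CPM in DP, 54.8 CPM in CD4 SP and 45.7 CPM in CD8 SP. Others were near their floor in DP and uneven between the single-positive gates. Nkg7, which encodes a cytotoxic granule protein, was at 0.668 CPM in DP, 32.5 CPM in CD4 SP and 726 CPM in CD8 SP. Izumo1r (folate receptor 4) was at 1.504 CPM in DP, 172 CPM in CD4 SP and 85.8 CPM in CD8 SP. Lfng, the fringe enzyme that modifies Notch receptors, was nearly equal in both single-positive gates. It was at 2.67 CPM in DP, 156 CPM in CD4 SP and 157 CPM in CD8 SP. In all, 10 called genes had 0 UMIs in DP, among them Ly6c2, at least 55.2-fold lower in DP than in CD4 SP with DP set at 3 UMIs.

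Cytokine receptor and Gimap genes were lower in DP only in part. The cytokine receptor list also holds Jak kinase and Socs genes. Of its 22 measured members 5 were called lower, Il7r, Il2rb, Il6ra, Il27ra and Jak3, and Ifngr1 was called higher. For this and the next lists, the shares over all measured genes were 2.78% lower and 4.54% higher. Il2rb, shared by the IL-2 and IL-15 receptors, was at 0.668 CPM in DP, 45.3 CPM in CD4 SP and 117 CPM in CD8 SP. Of the 8 Gimap GTPases, which support lymphocyte survival, 3 were called lower. Gimap4 was at 17.4 CPM in DP, 624 CPM in CD4 SP and 267 CPM in CD8 SP. Gimap1, in the same cluster, was at 287 CPM in DP, 239 CPM in CD4 SP and 191 CPM in CD8 SP and turned direction per cell, so members of the cluster did not move alike. In the actin list 3 of 27 were called lower. Tmsb10, an actin-binding thymosin, was at 2048 CPM in DP, 15495 CPM in CD4 SP and 16134 CPM in CD8 SP, and Vim, an intermediate filament gene, at 106 CPM in DP, 1107 CPM in CD4 SP and 1031 CPM in CD8 SP. Anxa2, a membrane-binding annexin, was the call in the other direction, at 594 CPM in DP, 27.6 CPM in CD4 SP and 30.7 CPM in CD8 SP.

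Within the receptor complex most genes were not called. Of 35 measured TCR complex and proximal signalling genes 4 were called higher (Themis, Sla, Cbl and Trbc1) and none lower, with medians of 0.30 and 0.49. Over all measured genes 4.54% were called higher and 2.78% lower, with medians of 0.33 and 0.52. Trbc1 and Trbc2, the TCR β constant genes, are close in sequence, so their split is uncertain. Trbc1 was at 871 CPM in DP, 213 CPM in CD4 SP and 138 CPM in CD8 SP, and Trbc2 had log2 ratios of 1.81 to CD4 SP and 2.40 to CD8 SP. Cd3e was at 1689 CPM in DP, 1369 CPM in CD4 SP and 1464 CPM in CD8 SP, and its order turned per cell. Genes induced by TCR signals were lower in DP against CD4 SP, and less so against CD8 SP. Of 22 measured members 2 were called lower (Tnfrsf9 and Myc) and none higher, with medians of -1.70 and -0.54. Cd69, an early activation marker that holds cells in the thymus, was at 77.0 CPM in DP, 169 CPM in CD4 SP and 164 CPM in CD8 SP. Cd5, a damper of TCR signals, was at 235 CPM in DP, 552 CPM in CD4 SP and 223 CPM in CD8 SP and its order between DP and CD8 SP turns with the scaling.

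For the remaining lists, counts stand beside 4.54% called higher and 2.78% called lower over all measured genes. The lists were not tested against these shares, and counts of 1 or 2 members are no result about a list. Chemokine receptors had 2 of 8 measured members called higher (Cxcr4 and the semaphorin receptor gene Plxnd1, listed with them) and 2 lower (Ccr7 and Cxcr6). Cxcr4, which binds cortical CXCL12, was at 72.2 CPM in DP, 3.57 CPM in CD4 SP and 8.31 CPM in CD8 SP. The purine list had 2 of 5 measured members called higher, Ada and P2ry10, and 2 lower, Adk and Art2b. Ada and Adk, which remove adenosine by different routes, moved apart. Ada was at 92.6 CPM in DP, 14.3 CPM in CD4 SP and 14.6 CPM in CD8 SP, and Adk at 5.51 CPM in DP, 32.7 CPM in CD4 SP and 31.8 CPM in CD8 SP. In the sterol list 2 of 10 were called higher, with medians of 0.75 and 0.96. NF-κB had 2 of 20 called lower (Bcl3 and Relb) and integrins 2 of 16 lower (Itgb7 and Itgae). Itgae reached 20 CPM in CD8 SP alone, at 0.334 CPM in DP, 3.67 CPM in CD4 SP and 232 CPM in CD8 SP. Glycosyltransferases had 1 of 13 higher (Mgat5) and chromatin regulators 2 of 25 higher (Rag2 and Hdac7). Notch genes had 1 of 6 higher (Ptcra) and 1 lower (Dtx1). Glycolysis (15 measured), fatty acid (13) and glucocorticoid genes (8) had no calls in either direction. None of 81 measured ribosomal protein genes was called, and 80 of them were lower in DP than in both gates, with medians of -0.85 and -1.03. The CD4 lineage list had 2 of 8 called lower (Cd82 and Izumo1r), the CD8 lineage list 7 of 10 lower, and the regulatory T and agonist list 3 of 8 lower (Gpr83, Ikzf4 and Tnfrsf9) and 1 higher (Nrp1). In the CD8 lineage list 6 members passed as lower in CD3εI173A cells and 3 in hashtag 5 cells. That list also holds Cd8a and Cd8b1, which the sort fixes.

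Markers of other cell types were checked for the whole of each list. B cell markers summed to 519 CPM in DP, 73.2 CPM in CD4 SP and 169 CPM in CD8 SP, nearly all from Ighm (464 CPM in DP) and Cd79b (53.8 CPM in DP), while Cd79a, Ms4a1 and Pax5 were at 0 in DP. Macrophage and dendritic markers summed to 31.4 CPM in DP, 52.5 CPM in CD4 SP and 38.4 CPM in CD8 SP, with 4 of 13 members at 0 in DP. Cd74 was the measured member and was called lower, at 6.85 CPM in DP, 47.2 CPM in CD4 SP and 32.0 CPM in CD8 SP. The complement gene C1qb of macrophages was at 6.68 CPM in DP, 0.310 CPM in CD4 SP and 1.07 CPM in CD8 SP, too low to be measured. Erythroid and neutrophil markers were at 0 for every member in DP. Gamma delta and NK markers summed to 22.2 CPM in DP, 28.6 CPM in CD4 SP and 6.39 CPM in CD8 SP, and of 8 epithelial markers only Ly75 was measured. Apart from Ighm, Cd79b, Cd74 and Ly75, no member of these lists reached 20 CPM in a gate. In the dissociation stress list 1 of 15 members was called higher, beside 4.54% of all measured genes. It was Fos, at 54.6 CPM in DP, 13.1 CPM in CD4 SP and 12.9 CPM in CD8 SP. In CD3εI173A cells Fos was at 16.9 CPM in DP, 13.8 CPM in CD4 SP and 14.9 CPM in CD8 SP. The part of stress genes and of other cell types in the results was not tested.

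The DP gate was not uniform. DP cells with at least 2 summed UMIs of the TCR signal genes Cd69, Itm2a, Egr1, Egr2, Nr4a1 and Cd5, after thinning, numbered 227 of 1811 (12.5%), a range of cells and not a type, since 76 of them had exactly 2 and 262 others exactly 1. None of these 6 genes was called. They are left out of the named values that follow, but the shares of all measured genes include them. Of the 336 higher genes 283 (84.2%) were lower in signal-high than in other DP cells, beside 53.8% of all measured genes. Of the 206 lower genes 142 (68.9%) were higher in signal-high than in other DP cells, beside 45.8% of all measured genes. Rag1 was at 535 CPM in signal-high and 1775 CPM in other DP cells, a ratio of 0.301 (0.258 to 0.349). Myb hardly differed within DP, at 590.3 CPM in signal-high and 606 CPM in other DP cells, although it was low in both single-positive gates. Tmsb10 was at 5527 CPM in signal-high and 1336 CPM in other DP cells, and Bcl2 at 167 CPM in signal-high and 12.2 CPM in other DP cells, a ratio of 13.7 (8.62 to 22.2). Klf2 was at 17.6 CPM in signal-high and 12.2 CPM in other DP cells, a ratio of 1.44 (0.490 to 3.54), and S1pr1 rested on 1 UMI in each. Cd2, an adhesion receptor, was at 620 CPM in signal-high and 86.7 CPM in other DP cells. Id3, flat between the gates, was at 755 CPM in signal-high and 271 CPM in other DP cells. A single UMI was worth 2.94 CPM in the signal-high cells, so low genes there are poorly resolved. Missorted cells and doublets among the signal-high cells were not tested for.

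**Figure D4:**
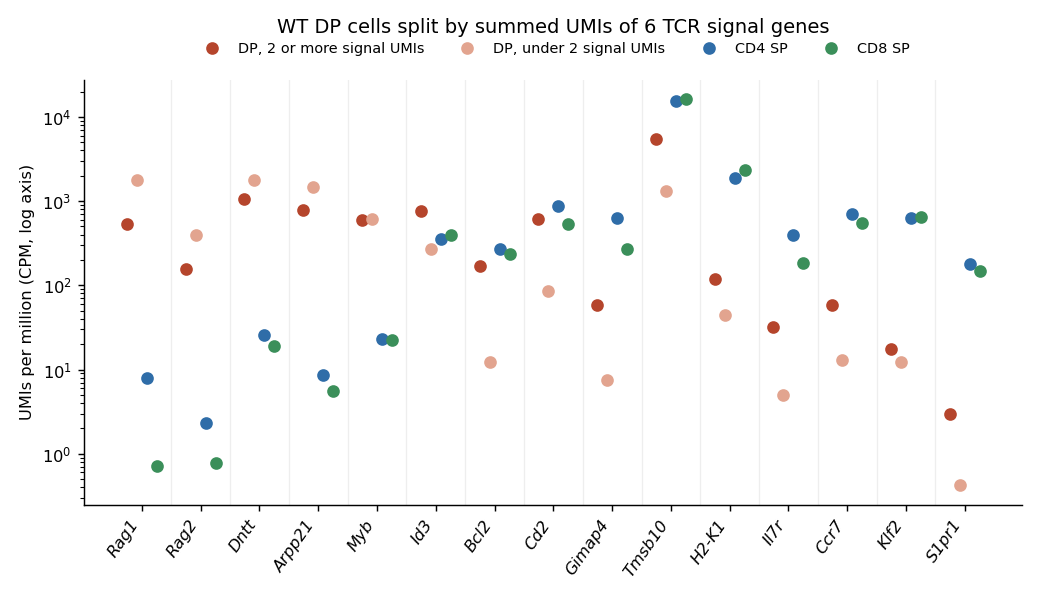
For 15 genes, points give the level in CPM on a log axis in DP cells with at least 2 UMIs of the 6 signal genes and in the other DP cells (both thinned to 1500 UMIs), and in CD4 SP and CD8 SP cells. Signal-high DP cells lie between the other DP cells and the single-positive gates for Rag1, Bcl2, Tmsb10 and H2-K1. They lie above all other groups for Id3, while Myb stays level within DP.

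TCR contigs, which the choice of genes did not use, gave another view of the same stages. A productive α chain (TRA) contig was found in 655 of 2119 DP cells (30.9%, 28.9% to 32.9%), 2706 of 3040 CD4 SP cells (89.0%, 87.8% to 90.1%) and 2141 of 2503 CD8 SP cells (85.5%, 84.1% to 86.9%). A productive β chain (TRB) contig was found in 78.1% of DP, against 93.8% of CD4 SP and 94.3% of CD8 SP cells. Of cells with a TRB contig, 61.5% in DP, against 6.59% in CD4 SP cells and 11.1% in CD8 SP had no TRA contig. Depth bears on these shares. In cells with 3000 to 6000 UMIs, an alternative added after the data were seen, TRA was found in 40.8% of DP, against 91.7% of CD4 SP and 86.3% of CD8 SP cells, and TRB in 91.3% of DP, against 96.4% of CD4 SP and 95.9% of CD8 SP cells. A TRA contig rested on a median of 4 UMIs in DP, against 8 in CD4 SP cells and 7 in CD8 SP, so a low α chain message and an unrearranged locus cannot be told apart. Within DP, TRA was found in 59.5% of the signal-high cells (52.8% to 65.9%) and 30.6% of the others (28.3% to 32.9%), and TRB in 87.2% of the signal-high and 84.6% of the other DP cells. RNA was thinned to the same depth for the split, but the TCR contigs were not thinned, so depth was not matched for these shares.

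The joins themselves also differed. TRAJ segments are numbered so that high numbers lie nearest the TRAV segments and are used in first rearrangements. Among TRA contigs, the median TRAJ number was 33 in DP (709 contigs), 27 in CD4 SP (3111) and 30 in CD8 SP (2431). TRAJ numbers of 40 or higher made up 36.1% of contigs in DP, against 23.7% in CD4 SP cells and 26.3% in CD8 SP. In the same order of gates, the medians were 32, 30 and 30 in CD3εI173A cells and 31, 30 and 30 in hashtag 5 cells. The shares of 40 or higher were 35.6%, 25.8% and 27.8% in CD3εI173A cells and 33.1%, 26.2% and 29.7% in hashtag 5 cells. By the share of 40 or higher, DP stood less far from the other gates there than in WT cells. The lowest numbers, 1 to 10, made up 10.7% (8.54% to 13.2%) in DP, 10.5% (9.49% to 11.7%) in CD4 SP and 10.3% (9.10% to 11.6%) in CD8 SP, so the intervals overlapped there. Among cells with TRA, 8.24% in DP, against 14.97% in CD4 SP cells and 13.5% in CD8 SP had 2 or more productive TRA contigs, and this share was not recomputed at matched depth.

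**Figure D5:**
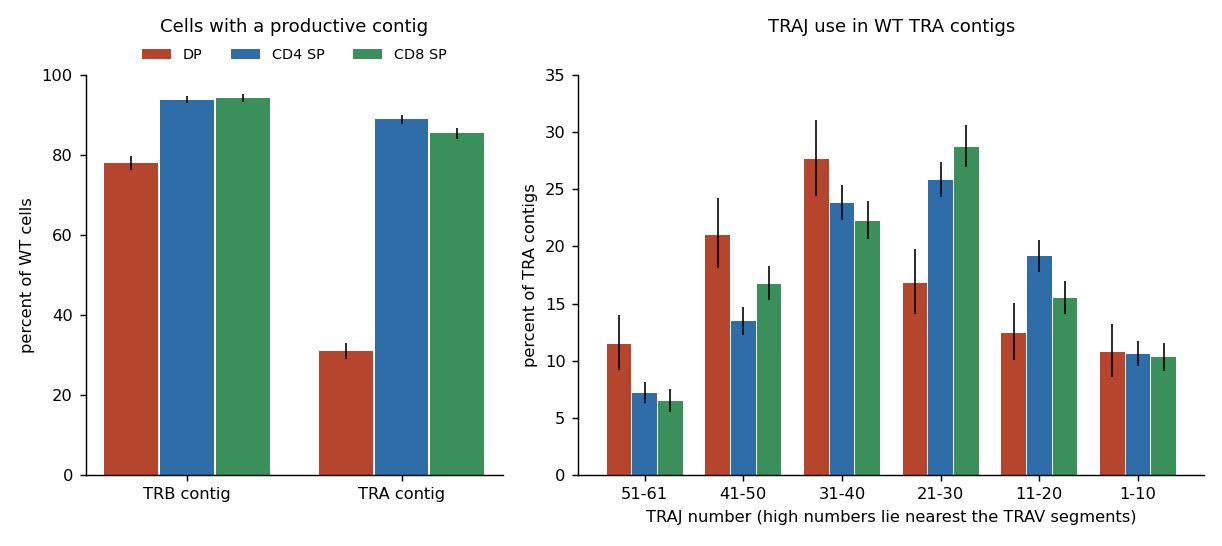
Left, the percent of WT cells with a productive TRB or TRA contig, and right, the percent of WT TRA contigs by TRAJ number, in DP (red), CD4 SP (blue) and CD8 SP (green); bars start at 0 and lines are exact 95% intervals. The TRA share is 30.9% in DP against 89.0% and 85.5% in CD4 SP and CD8 SP, and DP contigs lie more in numbers 41 to 61 and less in 11 to 30.

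The other cells of the same 3 libraries offered the nearest check that the design allows. In CD3εI173A cells 295 of the 336 higher genes (87.8%) and 175 of the 206 lower genes (85.0%) again passed 4-fold against both gates, and all of them kept their direction. In hashtag 5 cells 93.5% of the higher and 84.0% of the lower genes passed, and 336 and 204 kept their direction. Rag1 in CD3εI173A cells was at 1384 CPM in DP, 10.1 CPM in CD4 SP and 1.76 CPM in CD8 SP. S1pr1 in those cells was at 0.273 CPM in DP, 153 CPM in CD4 SP and 139 CPM in CD8 SP, with its DP level resting on 1 cell. These cells shared the sort, the library and the sequencing with the WT cells and are no replicate of them.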

How the data were processed

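The gated WT groups of thymocytes were compared by single-cell RNA, hashtag and TCR data, with 1 sample per gate and no replicates. The authors deposited UMI counts per gene, hashtag and cell barcode, raw and not normalized; per the submitters' processing notes the tool was Cell Ranger 6.0.1 and the build GRCm38 (mm10), and per the file headers the matrices were written by software version 3.1.0. Contig tables gave each cell's assembled TCR chains, as deposited by the authors.

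Counts were summed over the cells of a gate and divided by the gate total (CPM), with Python 3.11.15, numpy 2.4.6, scipy 1.17.1, pandas 2.3.3 and matplotlib 3.10.9. Ratio intervals are exact conditional 95% intervals for Poisson counts, and shares have Clopper-Pearson intervals. In log2 ratios, counts under 3 were set at 3. Intervals were tried on data simulated from the same Poisson model. That trial cannot show how they behave where UMIs are spread unevenly over cells. A productive contig needed at least 1 UMI.

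The 37 gene lists whose results are given, the members and the rules were chosen with earlier results of these data known. Genes were named as the 20 highest and 20 lowest by the weaker of their ratios to CD4 SP and CD8 SP (at least 20 CPM and 100 UMIs in the higher group; segment, mitochondrial, ribosomal protein, histone, haemoglobin and clone-named genes left out), 21 genes always named, and up to 4 members at each end of each list. Zbtb7b, Cd40lg, Xrcc6, Dclre1c, Il27ra, Xrcc4, Prkdc, Trbc2, Rmnd5a, B2m, Isg15, Ifit1, Ifi206, C1qb and the genes at the threshold were chosen after their values were seen, as were the interferon-type motif and the printed 40-base stretches. The alternatives changed the scaling, depth, filters, level floor, fold and cells. Some genes are not reported here.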

Additional observations from a re-analysis of the deposited data

Results flagged for a closer look

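S100a6 and Cd74 went in opposite directions against CD8 SP in WT and hashtag 5 cells, and the difference between these groups was not tested. In WT cells both were called lower in DP. In hashtag 5 cells the log2 ratio of DP to CD8 SP was 0.60 for S100a6 and 0.75 for Cd74. S100a6, a calcium-binding protein, had 3 UMIs in WT DP cells, against 568 in WT CD4 SP and 31 in WT CD8 SP cells.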

How the results depend on the processing

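No paired analysis was possible because each gate has 1 sample. The 336 higher and 206 lower genes became 163 and 567 with UMIs per cell, 180 higher with cycling cells kept, 222 and 126 with a level floor of 50 CPM, and 996 and 514 at 2-fold. Under the other alternatives tried, these counts stayed within 1.5 times. The TRA share in DP was 27.8% with cycling cells kept, 36.4% in CD3εI173A cells, 23.7% with at least 3 UMIs a contig and 40.8% in cells with 3000 to 6000 UMIs. In CD4 SP it was 86.7% in hashtag 5 cells, 85.0% with 3 UMIs a contig and 91.7% in cells with 3000 to 6000 UMIs. In CD8 SP it was 78.0% with cycling cells kept, 83.6% in CD3εI173A cells and 78.8% with 3 UMIs a contig. Of 7900 gene values recomputed, 5755 stayed within their counting interval, 2141 moved and 4 of called genes turned sign. In all 153 values, these included, differed in sign from those reported, the rest in genes not called. The 4 were the log2 ratios of DP to CD8 SP of Nrgn in thinned cells (0.18) and in cells with 3000 to 6000 UMIs (0.74), and of S100a6 (0.60) and Cd74 (0.75) in hashtag 5 cells. The cause was not tested. Genes with few UMIs in DP are limited by depth.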
